A study of Mus musculus with 6 samples.

Results

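Dividing leukaemia cells were described in single-cell RNA sequencing libraries of mouse lung. The 3 AML libraries (AML 1, 2 and 3) came from lungs infiltrated by acute myeloid leukaemia with the Trp53 genotype R172H/Δ, and the 3 Control libraries came from normal lungs. Per the labels' protocols, Liberase and DNaseI released the cells, the non-haematopoietic niche cells were sorted in both groups, and GFP-positive leukaemia cells, sorted apart, were mixed back into each AML suspension as 20% of its cells, against 80% niche cells. R172H is a missense allele of Trp53, which encodes the tumour suppressor p53, and Δ denotes a deleted allele. The labels used here give neither strain, age, number of animals nor the promoter behind GFP. Nor do they tie a library to its own animal. Dividing and non-dividing leukaemia cells were compared within each library. A p-value here thus reflects how evenly their difference repeats across these 3 AML libraries. How far that difference varies may have technical sources. Neither a sequencing batch nor a date is given for any library.

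A cell counted as a dividing leukaemia cell when it carried at least 500 genes, at most 15% mitochondrial unique molecular identifiers (UMIs, the counted molecules), 3 or more UMIs of Trap1a and Trnp1 together, 3 or more of Mki67 and Top2a together, and at most 2 of the endothelial genes Cdh5, Pecam1 and Cldn5 together. Trap1a and Trnp1 served as leukaemia genes, and both had 0 UMIs in the endothelial cells they were set beside, which the rule for those cells requires. Mki67 encodes the proliferation antigen Ki-67, which coats mitotic chromosomes, and Top2a encodes the topoisomerase that untangles replicated DNA. The rule found 387, 512 and 459 cells in AML 1, 2 and 3. These 1358 cells were part of 15565 cells that passed the filters in the AML libraries and of 24640 in all 6 libraries, out of 28516 barcodes. Leukaemia cells with 0 UMIs of Mki67 and Top2a, called non-dividing here, numbered 60, 297 and 343. Another 498 leukaemia cells had 1 or 2 such UMIs and entered neither class. None of 9075 Control cells met the rule, which allows a share of up to 0.0331%.

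A cell that divides first licenses and copies its DNA in S phase, wraps the copies with newly made histones, then condenses and separates the chromosomes in mitosis and splits. E2F transcription factors drive many genes of the first steps, and the DREAM and MuvB complexes, with B-MYB and FOXM1, drive many genes of mitosis through promoter elements called CHR and CCAAT box. Most of these transcripts are made in 1 stretch of the cycle and removed afterwards. The leukaemia cells carry altered p53, which in normal cells induces the inhibitor Cdkn1a and through it holds these genes down.

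Cells that met the rule made up 72.6% of the leukaemia cells in AML 1 (387 of 533, exact 95% binomial interval 68.6 to 76.4%), 50.9% in AML 2 (512 of 1005, 47.8 to 54.1%) and 45.1% in AML 3 (459 of 1018, 42.0 to 48.2%). The mean was 56.2% ± 14.5 (SD, n = 3). These intervals cover counting error only. AML 1 stood above the other 2 libraries, whose intervals just overlap. With each cell thinned to 10000 UMIs before the rule was applied, the shares were 58.5%, 44.8% and 39.4% in AML 1, 2 and 3. Thinned to 2000 UMIs they were 18.8%, 14.7% and 15.8%. Thinning also changed which cells counted as leukaemia cells. These numbered 460, 812 and 890 in AML 1, 2 and 3 at 10000 UMIs, and 208, 544 and 513 at 2000 UMIs. The share that a count rule calls dividing thus depends on depth and is not the share of cells in cycle. Just inside the rule, 23, 52 and 33 cells of AML 1, 2 and 3 had 3 UMIs of Mki67 and Top2a, with median totals of 27731, 23627.5 and 20801 UMIs. Just outside it, 32, 73 and 73 cells had 2 such UMIs, with median totals of 23873.5, 21577 and 22596 UMIs.

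**Figure D1:**
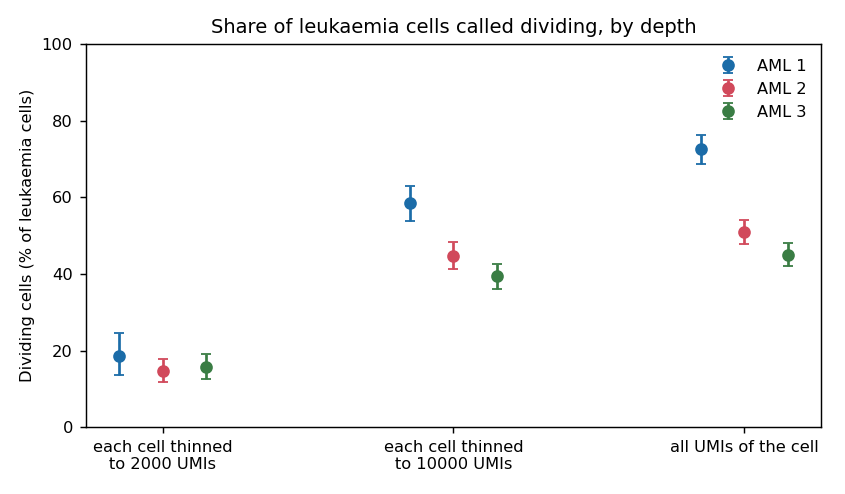
Share of leukaemia cells called dividing (vertical axis, percent) in AML 1, 2 and 3, with each cell thinned to 2000 UMIs, thinned to 10000 UMIs, or with all its UMIs. Points are libraries and bars are exact 95% binomial intervals; AML 1 sits at 72.6% with all UMIs and at 18.8% at 2000 UMIs, where the bars of all 3 libraries overlap.

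The genes that chose the cells are given as a description, in raw CPM, the UMIs of a gene per 1000000 UMIs of the class. Mki67 stood at 491, 465 and 475 in dividing cells of AML 1, 2 and 3 and Top2a at 467, 422 and 494, against 0 in non-dividing cells by the rule. The median dividing cell held 27, 21 and 21 UMIs of both genes together. Trap1a was at 458, 379 and 462 in dividing cells, against 567, 300.2 and 394 in non-dividing cells. Trnp1 was at 607, 1140 and 1017 in dividing cells, against 500.3, 1188 and 1135 in non-dividing cells. The levels of both leukaemia genes overlapped between the classes, while AML 1 had less Trnp1 than AML 2 and AML 3 in either class.

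The AML libraries held 39919902, 45953347 and 46018541 UMIs. The sums over dividing cells held 13340359, 15705786 and 11533812 UMIs, and those over non-dividing cells 1267215, 4756504 and 5929631, so the AML 1 non-dividing sum is the shallowest of the 6. The median dividing cell had 33643, 29822 and 24964 UMIs, against 21753.5, 15574 and 17296 UMIs in the median non-dividing cell, which is 1.55, 1.91 and 1.44 times as many. Mitochondrial UMIs made up 2.35%, 2.95% and 2.91% in dividing cells, against 3.15%, 2.93% and 3.08% in non-dividing cells. Of the kept barcodes, AML 1 and AML 2 shared 20, AML 1 and AML 3 shared 6, AML 2 and AML 3 shared 12, and 1 dividing leukaemia barcode was among them.

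Checked against markers, the cells carried single genes of early blood and red cells far above endothelial cells, and had no UMI of 2 granule enzymes. All values of this check are raw CPM. Myb, a transcription factor of blood progenitors, stood at 389, 303 and 343 in dividing cells of AML 1, 2 and 3, against 316, 223 and 269 in non-dividing cells, and at 1.51 to 3.38 in endothelial cells. Rhag, a membrane protein of red cells, stood at 208, 232 and 312 in dividing cells and at 248, 271 and 337 in non-dividing cells, against 0.526 to 1.42 in endothelial cells. Gata2 and Kit, also made by endothelial cells, were lower in the leukaemia cells, with 29.5 to 51.6 and 113 to 160 in dividing cells, 33.6 to 61.9 and 140 to 160 in non-dividing cells, and 361 to 530 and 212 to 355 in endothelial cells. Summed over all 35 members, early progenitor genes stood at 1821 to 1969 in dividing cells and 1827 to 2062 in non-dividing cells, against 10416 to 12497 in endothelial cells. The 47 erythroid genes stood at 3374 to 4635 in dividing cells and 3875 to 6312 in non-dividing cells. Endothelial cells had 4795 to 5384, so neither summed list set the leukaemia cells apart. The erythroid list also holds Aqp1, which is on the endothelial list. The erythroid members Gata1, Klf1 and Car1 stood at 65.6 to 105, 50.7 to 113 and 191 to 313 in dividing cells. They were at 52.8 to 86.0, 47.1 to 94.7 and 315 to 500 in non-dividing cells, against 0.376 to 1.75 in endothelial cells. Mpo and Elane, the granule enzymes that define neutrophil and monocyte precursors, were at 0 in every sum of both classes and of endothelial cells. Of 26 granulocyte and monocyte markers 4 were at 0 in all dividing sums, and the list stood at 48.9 to 201 in dividing cells and 52.6 to 137 in non-dividing cells, against 490 to 1093 in endothelial cells. Ptprc, the leukocyte antigen CD45, was at 1.72, 2.80 and 2.77 in dividing cells, against 9.47, 3.78 and 4.22 in non-dividing cells. The 14 mast cell and basophil markers stood at 288.4 to 509.8 in dividing cells and 629.7 to 1322.5 in non-dividing cells. Endothelial cells had 11.7 to 25.7, so this list stood above them in both classes. Mpo and Elane, 2 of the 26 granulocyte and monocyte markers, were thus absent, while mast cell and basophil markers were present. These markers do not decide the myeloid label. The cells are called leukaemia by their rule and by the GFP sort that the labels describe. Cdkn1a, the cell cycle inhibitor that p53 induces, was at 14.6, 41.2 and 37.9 in dividing cells and at 17.4, 31.7 and 32.2 in non-dividing cells, while endothelial cells of the same libraries had 1711 to 2828.

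UMIs were summed per library and class, and the dividing and non-dividing sums were compared within the 3 AML libraries (edgeR quasi-likelihood test with the library as a block, adjusted p under 0.05). All log2 values below are dividing minus non-dividing, with their SE, and plain CPM are raw CPM after TMM scaling, which corrects for a few strong genes, a share of each sum rather than molecules per cell. Of 11352 genes tested, 3489 passed the threshold (30.7%), of which 1846 were higher (16.3%) and 1643 lower (14.5%) in dividing cells. The median of all tested genes was -0.002. Outside the lists linked to the cell cycle, 1617 of 11089 genes were higher and 1634 lower, with a median of -0.01. Because Mki67 and Top2a chose the cells, any gene that runs with the cycle runs with the choice, and the counts of cell cycle lists are a description from which nothing is read. AML 2 weighed most on the count, which was 2203 without that library, 2508 without AML 3 and 3175 without AML 1.

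Replication genes formed the first of these lists. All 54 measured members, which license origins, build the fork or make its nucleotides, were higher in dividing cells, with a median of 1.80 and medians within libraries of 1.44, 1.56 and 2.07 in AML 1, 2 and 3. Pcna, the sliding clamp of the fork, had 340.5, 359 and 389 CPM in dividing cells of AML 1, 2 and 3, against 129.6, 140.5 and 107 CPM in non-dividing cells (1.56 ± 0.10). Rrm2, the inducible subunit of ribonucleotide reductase, had 105, 91 and 112 CPM in dividing cells, against 7.24, 11.9 and 6.91 CPM in non-dividing cells (3.53 ± 0.18). No dividing sum of either gene came near a non-dividing one, and both genes were still detected in every non-dividing sum. Mcm10, which recruits the polymerase, had the largest difference of the list, with 40.7, 39 and 41.2 CPM in dividing cells, against 3.22, 2.98 and 2.53 CPM in non-dividing cells (3.85 ± 0.17). Mcm6, a subunit of the helicase ring, had 189.6, 197 and 213 CPM in dividing cells, against 116, 97.8 and 92.4 CPM in non-dividing cells (1.02 ± 0.08). Ribonucleotide reductase's large subunit Rrm1 differed by 2.29 ± 0.13, thymidine kinase Tk1 by 3.37 ± 0.23 and DNA ligase Lig1 by 1.85 ± 0.13. Dut, which clears dUTP, differed by 0.65 ± 0.06. With each cell thinned to 10000 UMIs, 93.7%, 87.0% and 89.9% of dividing cells had a UMI of Pcna in AML 1, 2 and 3, against 69.8%, 66.3% and 54.4% of non-dividing cells and 49.5%, 63.1% and 55.1% of the few endothelial cells that deep.

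Mitosis genes differed more. Of 64 tested members 59 were higher and 0 lower, with a median of 3.21 and medians within libraries of 2.88, 2.72 and 3.53. Kif11, the motor that pushes spindle poles apart, had 88.2, 87.5 and 85.1 CPM in dividing cells, against 5.63, 5.05 and 1.69 CPM in non-dividing cells (4.65 ± 0.20). Cenpf, a kinetochore protein of late cycle, had 87.7, 141 and 102 CPM in dividing cells, against 6.44, 6.89 and 4.05 CPM in non-dividing cells (4.41 ± 0.13). Ttk, a kinase of the spindle checkpoint, had 26.3, 26.6 and 26.2 CPM in dividing cells, against 0, 1.38 and 0.169 CPM in non-dividing cells (5.40 ± 0.32), with 0 UMIs in the shallow AML 1 non-dividing sum. The dividing sums of Kif11 and Ttk lay close together, and those of all 3 genes far above every non-dividing sum. Ube2c, the ubiquitin-conjugating enzyme that starts the destruction of cyclins, had 284, 238 and 199.8 CPM in dividing cells, against 24.1, 27.3 and 6.07 CPM in non-dividing cells (3.79 ± 0.47). The kinase subunits Cks2 and Cks1b and the ubiquitin-conjugating enzyme Ube2s differed by 0.63 ± 0.07, 1.48 ± 0.11 and 0.82 ± 0.06. The values of Ttk moved to 7.41 without AML 2 and 4.62 without AML 3, and that of Ube2c to 4.46 without AML 2. Ube2c lost its call without AML 1 (adjusted p = 0.198).

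The promoters of both lists were read from RefSeq (GRCm38.p6) as windows from 250 bases before to 50 after each start, for 43 of the 54 replication genes and 54 of the 64 mitosis genes. The letters searched, on both strands, were TTTGAA or TTCGAA for CHR, CCAAT for the CCAAT box, and TTTCCCGC, TTTGGCGC, TTTCGCGC or TTTGCCGC for E2F. CHR letters stood in 69.5% of 59 mitosis windows and 15.7% of 51 replication windows, against 14.3% of the 11265 windows of tested genes. E2F letters stood in 6.8% of mitosis windows and 35.3% of replication windows, against 4.2% of the windows of tested genes. CCAAT letters stood in 72.9% and 56.9% of them, against 38.4%. Ribosomal protein windows held CHR letters in 7.0%, CCAAT letters in 31.0% and E2F letters in 2.8%. The 9 mast cell and basophil windows held them in 44.4%, 33.3% and 0%, and 33 DNA repair windows in 12.1%, 54.5% and 27.3%. A match is a run of letters, not a site shown to be bound. A replication promoter and a pair of mitosis promoters that hold such letters are shown, each with its matches in capitals. Among other named genes, Ttk, Cenpf and Cks1b also hold CHR and CCAAT letters, Ube2s holds CHR letters, and a Lig1 window holds E2F letters. The windows of Pcna, Rrm1, Rrm2 and Mcm10 have CCAAT but no E2F letters. That of Cks2 has CCAAT but no CHR letters, and those of Dut and Tk1 have no match. Mcm6 (chr1:128359656-128359955, reverse strand) has E2F letters at -110, -106 and -47 from the start, the first 2 overlapping on opposite strands, and CCAAT letters at -57 and -14. Kif11 (chr19:37376132-37376431, forward strand) has CCAAT letters at -45 and CHR letters at -19. Ube2c (chr2:164769679-164769978, forward strand) has CHR letters at -29 and CCAAT letters at 6 places, of which those at -186 and -183 overlap.
Mcm6: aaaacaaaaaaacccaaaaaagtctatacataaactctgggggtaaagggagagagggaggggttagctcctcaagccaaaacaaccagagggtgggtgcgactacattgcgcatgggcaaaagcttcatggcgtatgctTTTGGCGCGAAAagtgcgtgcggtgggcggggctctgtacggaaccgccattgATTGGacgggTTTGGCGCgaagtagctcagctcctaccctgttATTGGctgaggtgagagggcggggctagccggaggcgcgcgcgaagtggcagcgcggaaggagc
Kif11: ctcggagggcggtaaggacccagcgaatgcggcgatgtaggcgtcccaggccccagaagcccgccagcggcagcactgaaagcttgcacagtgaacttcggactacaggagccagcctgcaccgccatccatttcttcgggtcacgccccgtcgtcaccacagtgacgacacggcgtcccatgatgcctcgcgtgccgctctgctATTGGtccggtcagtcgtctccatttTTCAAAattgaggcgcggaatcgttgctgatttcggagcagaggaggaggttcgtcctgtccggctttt
Ube2c: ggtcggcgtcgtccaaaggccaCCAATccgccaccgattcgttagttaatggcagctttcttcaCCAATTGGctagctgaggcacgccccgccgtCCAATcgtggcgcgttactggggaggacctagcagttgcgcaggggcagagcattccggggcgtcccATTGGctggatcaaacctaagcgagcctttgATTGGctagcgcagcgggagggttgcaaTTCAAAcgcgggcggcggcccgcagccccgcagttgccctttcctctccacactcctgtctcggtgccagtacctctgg

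Replication-dependent histones, which package the new DNA, were higher in 43 and lower in 0 of 49 tested genes, with a median of 3.42, against 3.21 for mitosis genes. Their medians within libraries were 3.68, 2.98 and 3.25 in AML 1, 2 and 3, above those of mitosis genes in AML 1 and AML 2 and under it in AML 3. With Cdk1, Ccna2 and Birc5 as the genes of the rule the order turned, at 3.36 and 3.74. Those genes belong to the mitosis list and stayed in its median, so this turn does not rank the lists. Their transcripts mostly end without a poly(A) tail, so a poly(A) kit as used here captures them in part. Hist1h1b, a linker histone, had 261, 209 and 212 CPM in dividing cells, against 3.22, 5.51 and 3.37 CPM in non-dividing cells (5.69 ± 0.13). Hist1h2ap, an H2A gene, had 97.8, 353 and 1107 CPM in dividing cells, against 1.61, 8.95 and 17 CPM in non-dividing cells (5.80 ± 0.12). Its level differed more than 10-fold between AML 1 and AML 3 in either class, while Hist1h1b was nearly level. In non-dividing cells the gap rests on 2 UMIs of Hist1h2ap in AML 1. Of its 101 UMIs in AML 3 non-dividing cells, a single cell held 44. Hist1h1e differed by 2.70 ± 0.08 and Hist1h3c by 7.08 ± 0.27, with 7.81 for Hist1h3c without AML 2 and 6.07 without AML 3. Histone genes are near-identical copies, so reads may be shared among them.

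**Figure D2:**
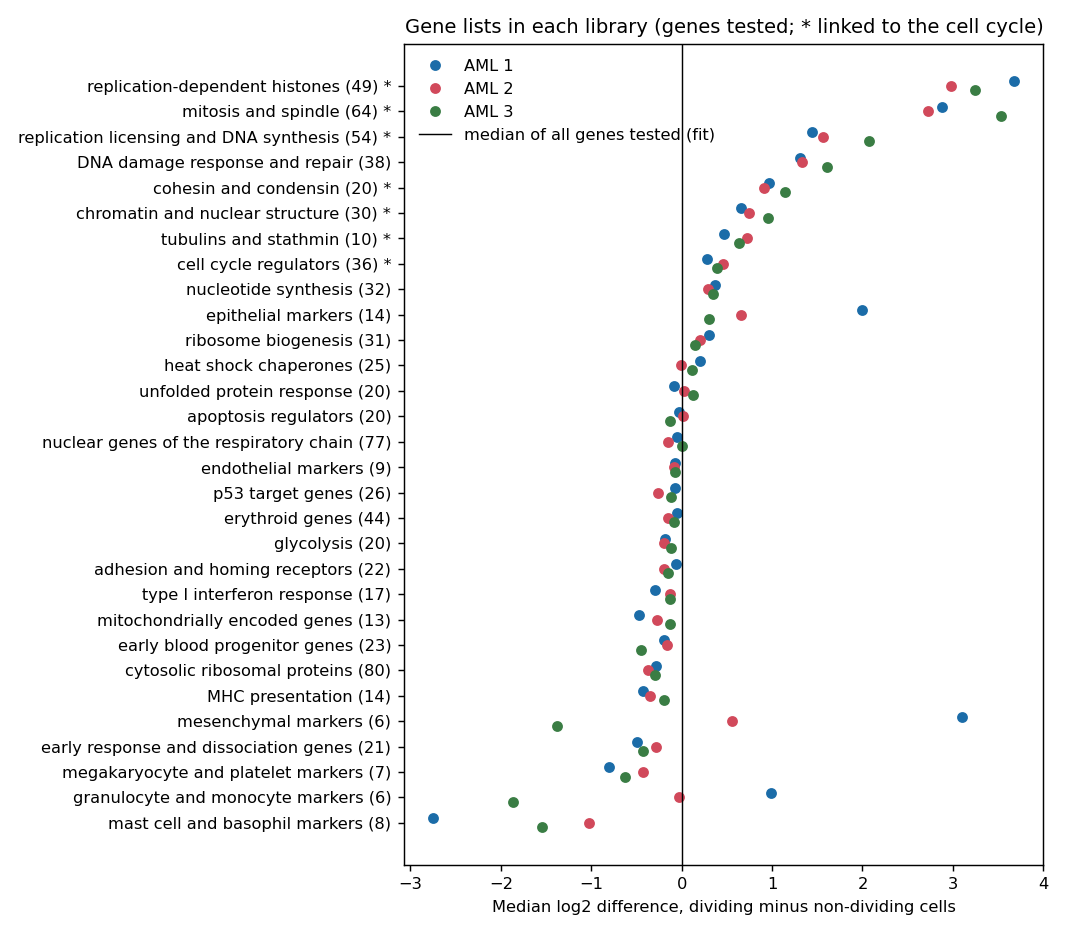
Median log2 difference, dividing minus non-dividing cells (horizontal axis), of each gene list with more than 4 tested members (rows, number tested in brackets), with 1 point per AML library and a line at the median of all tested genes. Histone and mitosis medians lie between 2.72 and 3.68 in every library, mast cell and basophil medians between -2.75 and -1.02, and the mesenchymal median at 3.1 in AML 1, 0.56 in AML 2 and -1.38 in AML 3.

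Of 20 cohesin and condensin genes, which hold and compact sister chromatids, 18 were higher and 1 lower (median 0.97). Ncapg2, a subunit of condensin II, had 84, 108 and 132 CPM in dividing cells, against 5.63, 7.34 and 5.06 CPM in non-dividing cells (4.27 ± 0.14). Smc2 and Smc4, the core of both condensins, differed by 2.79 ± 0.11 and 2.24 ± 0.08, and the cohesin subunit Smc3 by 0.78 ± 0.06. Esco2, which locks cohesin on in S phase, differed by 3.56 ± 0.13, and Wapl, which removes it, by 0.01 ± 0.06 with overlapping sums. Chromatin and nuclear structure genes were higher in 27 of 30, and lower in 0, with a median of 0.80. Hmgb2, a DNA-bending protein, had 1802, 2333 and 2168 CPM in dividing cells, against 583, 887 and 605 CPM in non-dividing cells (1.62 ± 0.08). H2afx and the histone chaperone Asf1b differed by 1.89 ± 0.07 and 2.91 ± 0.13. Of 10 tubulin and stathmin genes 7 were higher and 2 lower, with 1.34 ± 0.07 for Tubb5, 1.46 ± 0.07 for Tuba1b and 2.0 ± 0.18 for Stmn1.

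The regulators split. Of 36 tested, 21 were higher and 6 lower (median 0.37). Foxm1, the transcription factor of the mitotic genes, had 13.6, 15.6 and 16.7 CPM in dividing cells, against 0, 0.918 and 0.337 CPM in non-dividing cells (4.90 ± 0.34, 5.79 without AML 2). E2f7, which shuts E2F genes off late in S phase, and Fbxo5, which restrains the anaphase-promoting complex, differed by 3.72 ± 0.35 and 3.95 ± 0.13. A pair of G1 cyclins went the other way. Ccnd2 had 106, 117 and 115 CPM in dividing cells, against 184, 201 and 240.3 CPM in non-dividing cells (-0.89 ± 0.07), and Ccnd3 differed by -0.36 ± 0.07. Their kinase partners differed by 0.30 ± 0.07 for Cdk4 and -0.03 ± 0.07 for Cdk6, and the second did not pass the threshold. Cdkn2a, the locus of the inhibitor p16 and of the p53 activator ARF, had 257, 264 and 250.5 CPM in dividing cells, against 376, 357 and 303 CPM in non-dividing cells (-0.41 ± 0.07, edgeR adjusted p = 2.2e-05). It lay lower in dividing cells of all 3 libraries with no overlap, and was at 2.78 to 4.81 raw CPM in endothelial cells. Trp53 had 219, 219.7 and 192 CPM in dividing cells, against 188, 201 and 186 CPM in non-dividing cells (0.12 ± 0.07, edgeR adjusted p = 0.165). It lay higher in dividing cells within each library, with sums that overlap between libraries, and did not pass the threshold. It passed without a low-count filter (0.21, adjusted p = 0.0203) and with Cdk1, Ccna2 and Birc5 as the genes of the rule (0.23, adjusted p = 0.00821). Reads over the point mutation and the deleted allele were not analysed here.

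Dividing cells were not uniform. Per 10000 UMIs, the summed replication genes ran between 30 and 112 in the middle 90% of AML 1 dividing cells, with a median of 70.6. The summed histones ran between 1.1 and 68.3 with a median of 22.4, and the summed mitosis genes between 14.0 and 103 with a median of 53.4. In AML 2 the medians were 60.4 for replication, 13.7 for histones and 51.1 for mitosis genes, and in AML 3 they were 69.8, 31.9 and 51.3. Histones spread most, with a lower quartile of 4.45, 3.22 and 5.35 and an upper quartile of 44.3, 44.2 and 74.7 in AML 1, 2 and 3, so a large part of the dividing cells held few of them. Across cells of 1 library, replication and histone sums had a Spearman correlation of 0.39, 0.61 and 0.50, and replication and mitosis sums of -0.20, -0.10 and -0.04. These are descriptions over 387, 512 and 459 cells, whose sums share each cell's total. Total UMIs and UMIs of Mki67 and Top2a had a correlation of 0.35, 0.43 and 0.29.

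**Figure D3:**
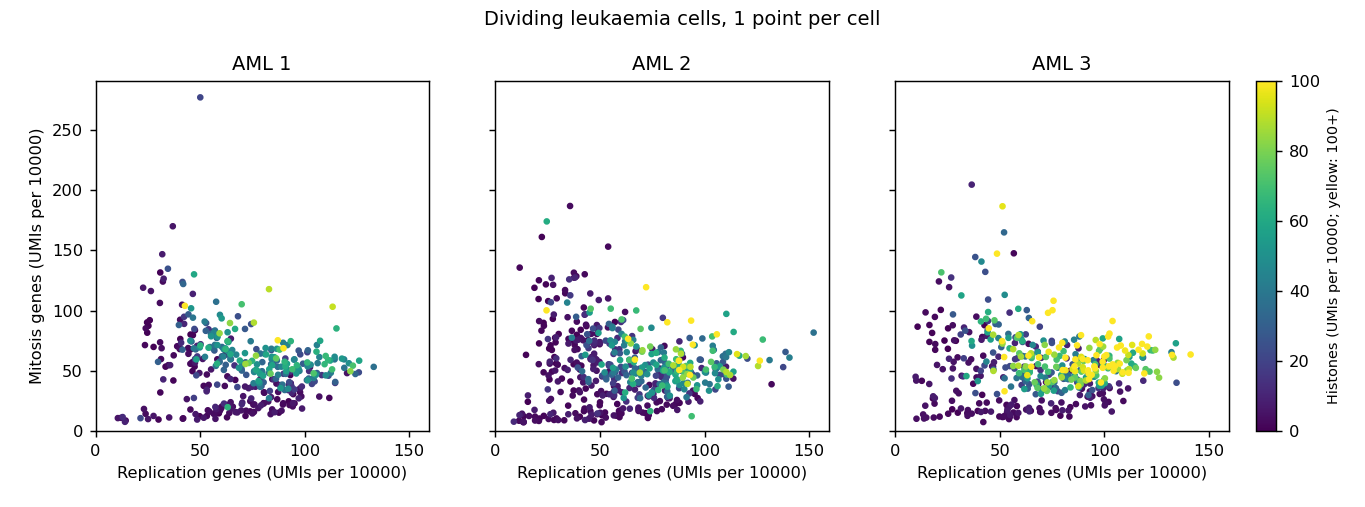
Each point is 1 dividing leukaemia cell, 387, 512 and 459 in AML 1, 2 and 3, with its summed replication genes (horizontal axis) and mitosis genes (vertical axis) in UMIs per 10000, coloured by its summed histones in the same unit. Cells rich in histones lie at middle to high replication levels, and dark cells poor in histones lie along the bottom and at the upper left.

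Ordered by their UMIs of Mki67 and Top2a, leukaemia cells differed by list, in summed raw CPM. Replication genes stood at 2578, 2235 and 1933 in AML 1, 2 and 3 in cells with 0 UMIs, at 5705, 4720 and 5172 in cells with 3 to 9, at 7548, 6575 and 7487 in cells with 10 to 29, and at 7264, 6906 and 7344 in cells with 30 or more. Histones were still at 508, 716 and 871 in cells with 3 to 9 UMIs and at 4000, 3898 and 6098 in cells with 30 or more. Mitosis genes were highest at 30 or more in every library, at 6919, 6829 and 6646. Replication genes were thus near their highest level already at 10 to 29 UMIs. Among replication, histone and mitosis genes, histones changed least, as a ratio, between 0 and 3 to 9. The bins also differ in depth, since cells with 30 or more UMIs had medians of 37781.5, 33572 and 28184 UMIs in all, and the part of depth was not tested.

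**Figure D4:**
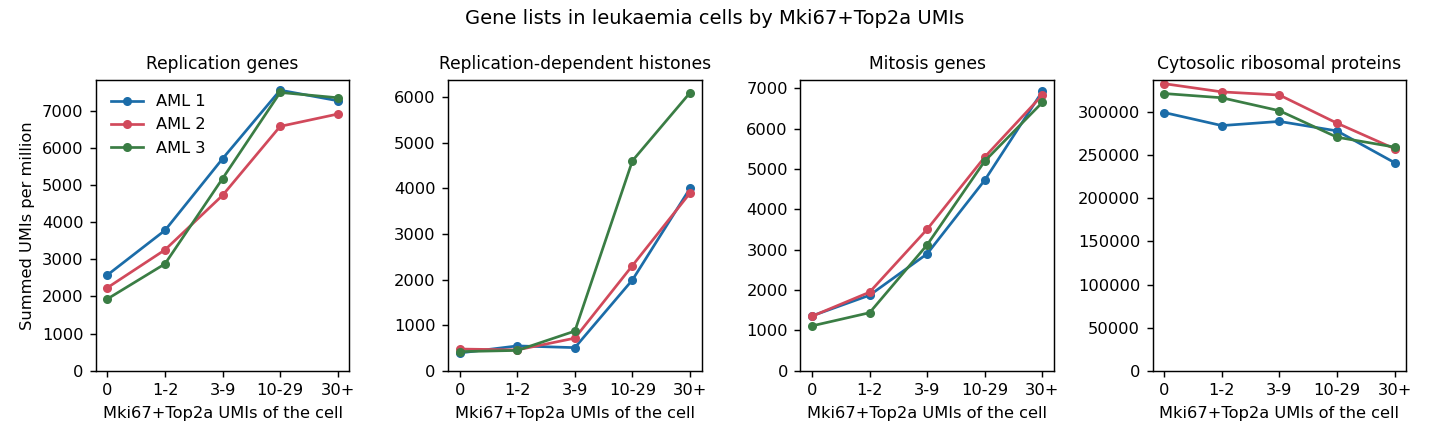
Summed raw CPM (UMIs per 1000000, vertical axes, from 0) of replication genes, histones, mitosis genes and cytosolic ribosomal proteins in leukaemia cells grouped by their UMIs of Mki67 and Top2a (horizontal axes), with 1 line per AML library. Histones are at 508, 716 and 871 raw CPM at 3 to 9 UMIs and reach 4000, 3898 and 6098 at 30 or more, while ribosomal proteins are lowest at 30 or more in all 3 libraries.

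Genes of the DNA damage response and repair were higher in 34 of 38 tested, against the 16.3% higher of all genes, and lower in 0, with a median of 1.51. Many of them serve the replication fork and are known to be made in S phase. Such genes run with the choice of cells, so their values are a description too. Brca1, which protects forks and directs repair by recombination, had 39.2, 41.5 and 45.2 CPM in dividing cells, against 2.41, 2.52 and 2.53 CPM in non-dividing cells (4.09 ± 0.18, edgeR adjusted p = 3.67e-15). Neil3, a glycosylase that opens DNA crosslinks (ENSMUSG00000039396, mm10 chr8:53586867-53639065), had 28.1, 40 and 43.2 CPM in dividing cells, against 0, 1.15 and 0.675 CPM in non-dividing cells (5.67 ± 0.24, edgeR adjusted p = 3.06e-15). Every dividing sum was at least 10 times every non-dividing sum for both genes. Other members differed less. Parp1, which senses breaks, had 123, 106 and 90.6 CPM in dividing cells, against 67.6, 72.1 and 53.5 CPM in non-dividing cells (0.70 ± 0.08), Rad50 of the break-processing complex differed by 0.60 ± 0.07, and Topbp1 and the helicase Blm by 1.41 ± 0.09 and 1.19 ± 0.08.

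Of the 15 genes with the largest rise outside the cycle lists, 13 are described here. Besides Neil3 and Brca1, most of them act in mitosis or at the fork. Aspm, which focuses spindle poles (ENSMUSG00000033952, mm10 chr1:139454772-139494091), had 58.4, 71.9 and 62 CPM in dividing cells, against 3.22, 6.20 and 3.04 CPM in non-dividing cells (3.94 ± 0.16). Knl1, the kinetochore scaffold (ENSMUSG00000027326, mm10 chr2:119047119-119105501), had 125, 144 and 134 CPM in dividing cells, against 12.1, 16.1 and 9.78 CPM in non-dividing cells (3.45 ± 0.11). Pclaf, a PCNA partner (ENSMUSG00000040204, mm10 chr9:65890237-65903266), had 191, 299 and 281 CPM in dividing cells, against 4.83, 28.5 and 12.6 CPM in non-dividing cells (3.98 ± 0.34, edgeR adjusted p = 0.014; 4.59 without AML 2). In all 3 the dividing sums stood several-fold above the non-dividing ones. Mastl, the Greatwall kinase, differed by 3.50 ± 0.21 and Ercc6l, a translocase of anaphase bridges, by 3.45 ± 0.25. The kinase Melk differed by 3.65 ± 0.23 (4.27 without AML 2) and the midbody protein Shcbp1 by 4.02 ± 0.20 (4.71). The exonuclease Exo1 differed by 3.50 ± 0.25, with 4.20 without AML 2 and 2.85 without AML 3. Aunip, a partner of Aurora A, differed by 4.40 ± 0.28 (5.32 without AML 2), Mtfr2, a regulator of mitochondrial fission, by 4.28 ± 0.27 (5.04 without AML 2), and Ddias by 3.73 ± 0.17. The edgeR adjusted p of these 13 genes lay between 6.88e-17 (Knl1) and 0.014 (Pclaf). Those that run with the cycle run with the choice of cells, so their p-values are a description from which nothing is read. Each of the 13 genes was higher in 3 of 3 libraries, as the choice of named genes required.

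**Figure D5:**
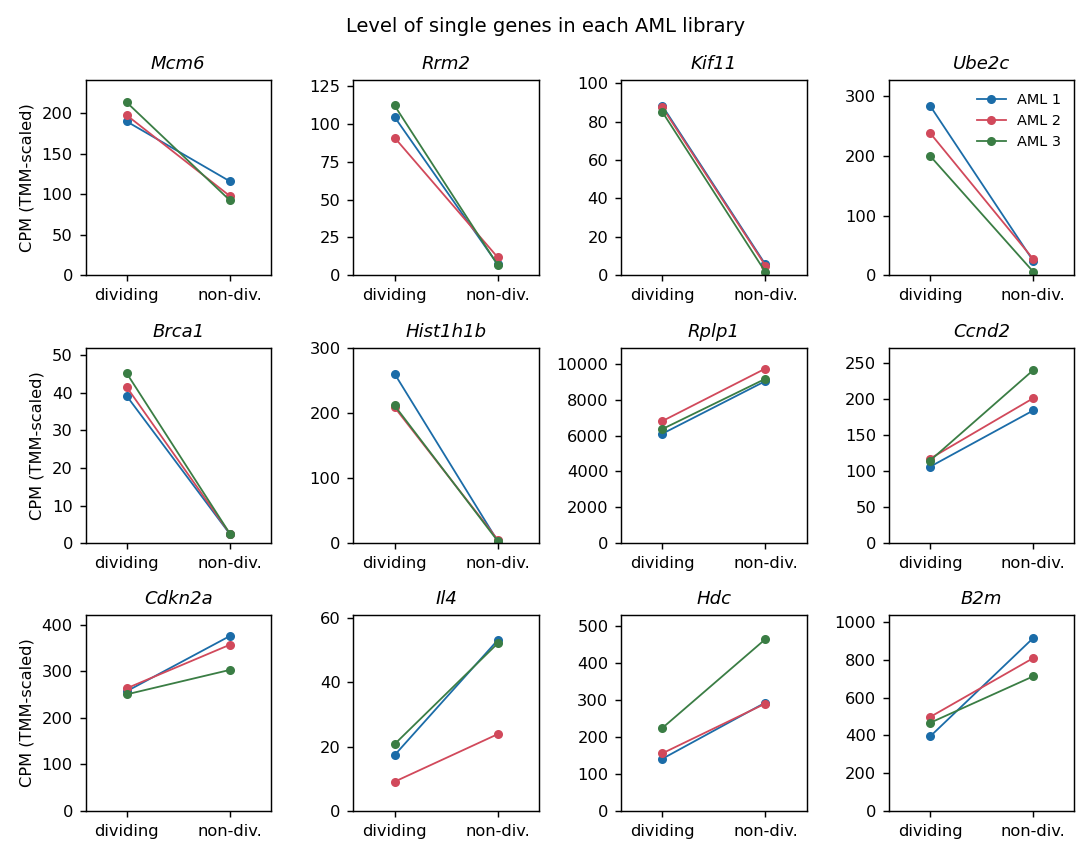
Level of 12 genes in CPM after TMM scaling (vertical axes, from 0) in dividing and non-dividing sums, with 1 line per AML library. Mcm6, Rrm2, Kif11, Ube2c, Brca1 and Hist1h1b are higher in dividing cells in all 3 libraries, and Rplp1, Ccnd2, Cdkn2a, Il4, Hdc and B2m are lower in all 3.

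Growth genes rose in part, beside 16.3% higher and 14.5% lower of all genes. Of 32 nucleotide synthesis genes 20 were higher and 0 lower, with a median of 0.28. Shmt1 and Mthfd2, enzymes of folate one-carbon metabolism, differed by 1.73 ± 0.16 and 1.16 ± 0.17, and Pfas of purine synthesis by 1.02 ± 0.13 (edgeR adjusted p = 1.38e-08, 6.56e-06 and 1.77e-06). Dtymk, the kinase that makes thymidine diphosphate, had 454, 435 and 445 CPM in dividing cells, against 348, 351 and 308 CPM in non-dividing cells (0.41 ± 0.06). Of 31 ribosome biogenesis genes 14 were higher and 1 lower, with a median of 0.18. Ncl, the main nucleolar protein, had 1682, 1983 and 1574 CPM in dividing cells, against 1138, 1492 and 1138 CPM in non-dividing cells (0.48 ± 0.05, edgeR adjusted p = 5.32e-08), and the small nucleolar RNA-binding proteins Nop56 and Nop58 differed by 0.54 ± 0.06 and 0.40 ± 0.06. Both medians lay well under those of the replication and mitosis lists. The ribosome biogenesis count was 7 higher and 2 lower when the classes were matched on UMIs per cell, and the nucleotide count 13 higher and 3 lower. With cells carrying other cell types' markers left out, which kept few cells, both lists had 0 higher and 2 lower, of 27 and 24 tested.

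Cytosolic ribosomal proteins took a smaller share of the UMIs in dividing cells. Of 80 tested genes 74 were lower and 0 higher, against the 14.5% lower of all genes, with a median of -0.32. Their summed CPM was 250150, 280710 and 261124 in dividing cells of AML 1, 2 and 3, against 305559, 363632 and 321662 in non-dividing cells. Every dividing sum lay under every non-dividing sum. Rplp1, of the ribosome stalk, had 6104, 6809.7 and 6363 CPM in dividing cells, against 9043, 9740.4 and 9169.7 CPM in non-dividing cells (-0.54 ± 0.04, edgeR adjusted p = 1.01e-10), and Rpl13 and Rps24 differed by -0.36 ± 0.04 and -0.47 ± 0.04. Rps27 had 1566, 1922 and 2349 CPM in dividing cells, against 2167, 2783 and 3278 CPM in non-dividing cells (-0.49 ± 0.05), with sums that overlap between libraries and are lower in dividing cells within each. The count was 78 lower when the classes were matched on UMIs per cell, 29 lower and 2 higher with a median of -0.12 when Cdk1, Ccna2 and Birc5 replaced Mki67 and Top2a in the rule, and 4 lower without the library as a block. In cells with 0, 3 to 9 and 30 or more UMIs of Mki67 and Top2a, the share was 333098, 319935 and 257644 raw CPM in AML 2.

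The 13 genes of the mitochondrial genome were lower in 12 and higher in 0, with a median of -0.26. Of all genes 14.5% were lower and 16.3% higher. mt-Nd4, a subunit of complex I, had 1358, 1542 and 1225 CPM in dividing cells, against 2052, 1988 and 1428 CPM in non-dividing cells (-0.39 ± 0.06, edgeR adjusted p = 0.000128), lower within each library with overlapping sums. The count was 5 without AML 2 and 8 without AML 1. Of 77 nuclear genes of the respiratory chain 18 were lower and 5 higher (median -0.08), among them Uqcrh of complex III (-0.54 ± 0.06) and Ndufa6 of complex I (-0.44 ± 0.06). This direction depended on the rule and the filter, with 32 higher and 3 lower (median 0.12) when Cdk1, Ccna2 and Birc5 chose the cells and 10 higher and 7 lower (median 0.02) without a low-count filter, against 0 higher and 38 lower (median -0.22) with classes matched on UMIs per cell. The lower count was 8 without AML 2. Of 20 glycolysis genes 8 were lower and 1 higher (median -0.14), and 5 lower without AML 1 or without AML 2. With classes matched on UMIs per cell 13 of 19 were lower, and with Cdk1, Ccna2 and Birc5 in the rule 2 of 20. Aldoc, an aldolase, had 2.51, 1.52 and 2.31 CPM in dividing cells, against 7.24, 7.57 and 9.44 CPM in non-dividing cells (-2.0 ± 0.30, edgeR adjusted p = 1.23e-05), while the lactate dehydrogenase gene Ldha had 962, 811 and 692 CPM in dividing cells, against 1031, 906 and 721 CPM in non-dividing cells (-0.11 ± 0.05) and did not pass the threshold, but did when the classes were matched on UMIs per cell (-0.25, adjusted p = 0.00789).

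Of 44 erythroid genes 15 were lower, against the 14.5% lower of all genes, and 8 higher, a count near the 16.3% higher of all genes (median -0.12). There were 8 lower without AML 2 and 5 higher without AML 3, and the split was 8 lower and 9 higher with classes matched on UMIs per cell and 10 lower and 12 higher without a low-count filter. Car1, the carbonic anhydrase of red cells, had 239, 191 and 299 CPM in dividing cells, against 460.3, 344 and 499.7 CPM in non-dividing cells (-0.84 ± 0.06, edgeR adjusted p = 1.19e-10). Hemgn, a nuclear protein of red cell precursors, had 22.7, 17.1 and 27 CPM in dividing cells, against 3.22, 7.34 and 4.55 CPM in non-dividing cells (2.02 ± 0.25, edgeR adjusted p = 0.000133; 2.61 without AML 2). The dividing and non-dividing sums of both genes did not overlap, in opposite directions. Rhag differed by -0.29 ± 0.06. Hba-a1, an alpha globin, had 603, 509.9 and 737 CPM in dividing cells, against 2085, 962 and 889.6 CPM in non-dividing cells (-0.98 ± 0.43, edgeR adjusted p = 0.271) and did not pass, but did when the classes were matched on UMIs per cell (-0.55, adjusted p = 0.00278), with 58.0%, 58.5% and 68.7% of its UMIs in dividing cells held by the top 5% of cells. Of 23 early progenitor genes 11 were lower and 1 higher (median -0.31), with 7 lower without AML 2 and 5 without AML 3. Spi1, the transcription factor PU.1 of myeloid and lymphoid fate, had 17.5, 23.1 and 29.4 CPM in dividing cells, against 57.9, 46.1 and 54.5 CPM in non-dividing cells (-1.11 ± 0.13, edgeR adjusted p = 1.6e-05). Myb differed by 0.27 ± 0.06 (edgeR adjusted p = 0.00154), while Kit, the stem cell factor receptor, and Lmo2 differed by -0.17 ± 0.07 and 0.13 ± 0.07 and did not pass.

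Mast cell and basophil markers were lower in dividing cells. Of 14 markers 8 were tested, and 6 of them were lower, against the 14.5% lower of all genes, and 0 higher (median -1.72). With DESeq2 all 8 were lower. Hdc, which makes histamine, had 141, 156 and 224 CPM in dividing cells, against 293, 290.3 and 465 CPM in non-dividing cells (-1.0 ± 0.06, edgeR adjusted p = 8.2e-12). Il1rl1, the receptor for interleukin 33, had 63.3, 63.5 and 88.2 CPM in dividing cells, against 112, 100.3 and 152 CPM in non-dividing cells (-0.75 ± 0.07, edgeR adjusted p = 2e-08). The sums did not overlap for either gene. Gzmb, a granzyme, had 0.859, 0.889 and 0.496 CPM in dividing cells, against 17.7, 2.30 and 13.8 CPM in non-dividing cells (-3.59 ± 0.62), -4.52 without AML 2, and lost its call without AML 1 (adjusted p = 0.0993). Ms4a2, a chain of the IgE receptor, differed by -0.73 ± 0.18 and lost its call without AML 2 (adjusted p = 0.0982) and when the classes were matched on UMIs per cell (0.443). Cma1, a chymase, differed by -2.13 ± 0.24. Cpa3, the carboxypeptidase of mast cell granules, had 18.6, 20.5 and 72.4 CPM in dividing cells, against 533, 184 and 467 CPM in non-dividing cells (-3.45 ± 0.62, edgeR adjusted p = 0.0756) and did not pass, but passed without AML 1 (adjusted p = 3.91e-07). The top 5% of non-dividing cells held 79.8%, 74.0% and 56.9% of the Cpa3 UMIs of that class. With cells thinned to 10000 UMIs, 8.64%, 16.2% and 26.1% of dividing cells had a UMI of Cpa3, against 32.1%, 24.2% and 47.4% of non-dividing cells and 0 to 0.99% of endothelial cells. With cells of 20 or more mast cell UMIs left out of both classes, all 7 markers still tested were lower, with a median of -1.01.

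Of the 15 genes with the largest fall outside the cycle lists, several are also known from mature blood cells. Il4, a cytokine of mast cells and T helper cells (ENSMUSG00000000869, mm10 chr11:53602982-53618669), had 17.3, 9.08 and 20.8 CPM in dividing cells, against 53.1, 23.9 and 52.1 CPM in non-dividing cells (-1.42 ± 0.12, edgeR adjusted p = 5.5e-10). Serpinb1a, an inhibitor of granule proteases (ENSMUSG00000044734, mm10 chr13:32842092-32851185), had 262, 142 and 319.5 CPM in dividing cells, against 941, 340.4 and 904 CPM in non-dividing cells (-1.53 ± 0.10, edgeR adjusted p = 2.73e-05). Slc18a2, which loads histamine and serotonin into granules, differed by -1.31 ± 0.17, and Fcer1g, the common chain of Fc receptors, by -1.31 ± 0.19, though Fcer1g did not pass when the classes were matched on UMIs per cell (-0.73, adjusted p = 0.675). These 4 genes fell in all 3 libraries, as the choice of named genes required, and Slc18a2 is itself on the mast cell list. H2-Oa, a chain of the class II accessory protein DO (ENSMUSG00000024334, mm10 chr17:34092340-34095234), had 1.0, 2.79 and 6.53 CPM in dividing cells, against 15.3, 17.9 and 27.2 CPM in non-dividing cells (-2.54 ± 0.25, edgeR adjusted p = 5.36e-06). Gpr65, a proton-sensing receptor, differed by -2.21 ± 0.40. Laptm5, a lysosomal membrane protein of blood cells, had 32.9, 51.8 and 59.8 CPM in dividing cells, against 167, 127 and 190.2 CPM in non-dividing cells (-1.70 ± 0.26, edgeR adjusted p = 0.0402) and lost its call without AML 3 (adjusted p = 0.253). Mxd4, which competes with MYC for its partner MAX (ENSMUSG00000037235, mm10 chr5:34173883-34187720), had 24.5, 33.3 and 35 CPM in dividing cells, against 78.1, 79 and 88.4 CPM in non-dividing cells (-1.38 ± 0.10, edgeR adjusted p = 3.3e-11). Its non-dividing sums were all more than 2 times its dividing sums. Bace2, a membrane protease, differed by -1.47 ± 0.18, Tcn2, a carrier of vitamin B12, by -1.36 ± 0.12, and Neurl3, a ubiquitin ligase, by -1.54 ± 0.15. Rps6ka1, a kinase downstream of ERK, differed by -1.28 ± 0.14, Cyth4, an exchange factor for ARF proteins, by -1.28 ± 0.15, and the long non-coding RNA Mirt1 by -1.26 ± 0.15. Sgk1, a kinase induced by glucocorticoids, differed by -1.22 ± 0.18 and lost its call without AML 2 (adjusted p = 0.0942).

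The called genes of MHC presentation and the early response were lower, beside 14.5% lower and 16.3% higher of all genes. Of 14 MHC presentation genes 5 were lower and 0 higher (median -0.34), and 3 were lower without AML 2. H2-T23, a non-classical class I molecule, had 61, 51.8 and 75.6 CPM in dividing cells, against 163, 88.6 and 139 CPM in non-dividing cells (-0.99 ± 0.11, edgeR adjusted p = 4.98e-05). B2m, the light chain of class I, had 394, 497 and 466 CPM in dividing cells, against 915, 809 and 712 CPM in non-dividing cells (-0.83 ± 0.14, edgeR adjusted p = 0.0226) and lost its call without AML 2 (adjusted p = 0.105). Of 17 type I interferon response genes 3 were lower and 2 higher (median -0.20), near the shares of all genes. Ifi27 differed by -0.68 ± 0.07 and Ifit2 by 1.05 ± 0.24. Of 21 early response and dissociation genes 8 were lower and 0 higher (median -0.44), but 0 lower and 1 higher of 12 tested (median 0.36) with cells carrying other cell types' markers left out. Dusp1, a phosphatase that ends stress kinase signals, had 67.9, 59.8 and 72.3 CPM in dividing cells, against 149, 93.2 and 167 CPM in non-dividing cells (-0.99 ± 0.11, edgeR adjusted p = 4.26e-05), and Jun differed by -0.06 ± 0.06 and did not pass. Tissue digestion is known to induce this list, and its part was not tested.

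The counts of the next lists stand beside 14.5% lower and 16.3% higher of all genes. Of 26 tested genes of the p53 target list, which also holds Trp53 itself, 8 were lower and 2 higher (median -0.10). There were 4 lower without AML 2 or without AML 3. Ddit4, an inhibitor of the growth kinase mTOR, had 24.7, 38.5 and 44.9 CPM in dividing cells, against 63.6, 78 and 84 CPM in non-dividing cells (-1.04 ± 0.10, edgeR adjusted p = 5.19e-09), and Gadd45a differed by -0.83 ± 0.08. Ckap2, a spindle protein that the list also holds, differed by 1.83 ± 0.16, and Bax, an activator of cell death, by 0.10 ± 0.08 without passing. Of 25 heat shock chaperones 8 were higher and 1 lower (median 0.10), 5 higher without AML 3, and 2 higher and 2 lower with classes matched on UMIs per cell. Stip1, an HSP90 partner, differed by 0.44 ± 0.07. Of 20 unfolded protein response genes 4 were higher and 2 lower (median 0.06), near the shares of all genes. The split was 2 higher and 4 lower without AML 3, and 0 higher and 2 lower with classes matched on UMIs per cell. Xbp1 differed by -0.87 ± 0.15. Of 20 apoptosis regulators 5 were lower and 2 higher (median 0.01), with -0.28 ± 0.07 for the survival gene Mcl1. Of 22 adhesion and homing receptors 7 were lower and 1 higher (median -0.15). S1pr1, the receptor that draws blood cells out of tissue, had 4.37, 9.08 and 7.77 CPM in dividing cells, against 7.24, 18.1 and 15.3 CPM in non-dividing cells (-0.96 ± 0.17, edgeR adjusted p = 0.000117), lower within each library with overlapping sums. Itga4, an integrin that binds VCAM1, differed by -0.03 ± 0.07 and did not pass.

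Transcripts that mark other lung cells stood in both classes, and their source was not tested. The counts of called genes below stand beside 16.3% higher and 14.5% lower of all genes. Over the 16 epithelial markers the summed level was 359 to 1553 raw CPM in dividing cells, against 156 to 633 in non-dividing cells. It was 3971 to 5689 in endothelial cells, and no marker was at 0 in all dividing sums. Of 14 tested 4 were higher and 2 lower (median 0.24), turning to 0 higher and 2 lower (median -0.28) with 5 or more UMIs of Mki67 and Top2a in the rule and to 0 higher and 3 lower of 10 (median -0.57) with cells of 20 or more surfactant UMIs left out. Sftpc, the surfactant protein of alveolar type 2 cells, had 594, 176 and 1109.9 CPM in dividing cells, against 63.6, 91.3 and 385 CPM in non-dividing cells (1.68 ± 0.54, edgeR adjusted p = 0.18) and did not pass. Without AML 1 it did (adjusted p = 0.0133), and with cells of 20 or more surfactant UMIs left out the difference was -0.38. The top 5% of dividing cells held 93.7%, 72.2% and 93.9% of its UMIs. Over the 16 mesenchymal markers the level was 143 to 207 raw CPM in dividing cells and 175 to 361 in non-dividing cells. Endothelial cells had 176 to 343. Of 6 tested 0 were higher and 2 lower (median -0.42), but the medians within libraries were 3.1, 0.56 and -1.38 in AML 1, 2 and 3, and without AML 3 the list had 3 higher and 2 lower (median 1.06). Dcn, a matrix proteoglycan, had 51.8, 73.1 and 127 CPM in dividing cells, against 122, 156 and 201 CPM in non-dividing cells (-0.95 ± 0.10, edgeR adjusted p = 8.91e-06). In endothelial cells Dcn was at 2.78 to 33.8 raw CPM. The 15 endothelial markers outside the rule stood at 227 to 253 raw CPM in dividing cells and 238 to 250 in non-dividing cells, against 20571 to 21509 in endothelial cells. Of 6 granulocyte and monocyte markers tested 2 were lower and 0 higher (median -0.77, but 0.22 without AML 3), among them Csf2rb, a receptor chain for growth factors (-3.10 ± 0.26). Lymphoid markers stood at 5.9 to 7.9 in dividing cells and at 3.2 to 25.2 in non-dividing cells, with 0 of 4 tested called. Megakaryocyte and platelet markers stood at 42.6 to 76.7 in dividing cells and at 76.5 to 101.5 in non-dividing cells, with 2 of 7 lower and 0 higher (median -0.70). Leaving out cells of 20 or more surfactant UMIs gave 3468 called genes, and leaving out cells of 20 or more mast cell UMIs 3377. Leaving out cells with markers of other cell types kept only 33, 44 and 30 dividing and 10, 72 and 31 non-dividing cells, and 538 of 5169 tested genes were then called.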

How the data were processed

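The deposited files hold raw UMI counts per gene and barcode over 32285 features, from 10x Single Cell 3' v3.1 libraries per the labels. The authors' counting program was Cell Ranger with the mm10 build. Its version differs between sources, being 6.0.1 per the file headers and 7.0.0 per the submitters' processing notes. Cells were kept and classed by the stated rule, and the 7 genes of that rule were left untested and uncounted. Doublets were not removed in the main comparison; Scrublet scores (scanpy 1.11.5) served an alternative that removed the top 0.8% per 1000 cells. Counts were summed per library and class and tested with edgeR 4.0.16 (R 4.3.3; TMM, filterByExpr, robust quasi-likelihood, Benjamini-Hochberg over all genes). The SE of a log2 difference is its size over the square root of the F statistic. The fit was tested on simulated data.

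The library is the block, since both sums come from the same library; deviations from the class means correlated at 0.60, 0.65 and 0.63 within AML 1, 2 and 3 over 5655 genes, and at -0.40 to -0.17 between libraries. The members and the 31 gene lists were chosen with earlier results of these data known. Named genes were, outside the cycle lists, the 15 higher and 15 lower with the largest log2 difference among those called, moving 1 way in 3 of 3 libraries and at 20 CPM or more in 1 class. In each list the 5 with the highest mean CPM and the 3 most changed members could be named; Trp53 and Cdkn2a were added, and 2 of the 15 higher genes are not reported here. A planned test of division in leukaemia against endothelial cells was not run, as 4 endothelial cells in the AML libraries were dividing and 20 per library were required. Alternatives were another scaling, DESeq2 1.42.0, no low-count filter, no block, each library left out, other thresholds or genes of the rule, doublets removed, matching or thinning of UMIs, and cells with other cell types' RNA left out. The last on surfactant and mast cell RNA and the thinning to 10000 UMIs were chosen after seeing the data. Positions are from GENCODE M21.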

Additional observations from a re-analysis of the deposited data

Results flagged for a closer look

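Some cells carried 3 or more UMIs of Trap1a and Trnp1 and also 3 or more of the endothelial genes Cdh5, Pecam1 and Cldn5, and the rule kept them out of both classes. There were 48 such cells in AML 1, 62 in AML 2 and 69 in AML 3, against 0 in each Control library, and they lie outside the comparisons above. Of them 36, 32 and 29 would have counted as dividing by Mki67 and Top2a. Their median totals were 34511, 25748 and 22906 UMIs, against 33643, 29822 and 24964 UMIs in dividing leukaemia cells. Whether they are 2 cells in 1 droplet was not tested.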

How the results depend on the processing

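The count of called genes was 3489 in the main comparison, and all but 4 of its 16 alternatives gave a count within 1.5 times of it. It was 1943 with DESeq2, of which 1911 were called in the same direction by both, and 538 of 5169 tested genes when cells with markers of other cell types were left out, which kept 33, 44 and 30 dividing and 10, 72 and 31 non-dividing cells. Leaving out 1 library gave 2203 to 3175. The pairing of the classes by library mattered: with no replicate block 1212 genes were called, 1200 of them in the same direction as with it. Without a low-count filter 67.6% of the calls were higher in dividing cells, against 52.9% with it. The percent of dividing cells averaged 16.4% at 2000 UMIs per cell, against 56.2%, and 48.0 to 61.8% on leaving out a library. Over 120 named genes and their alternatives, 1801 of 1891 values kept direction and side of the threshold, 72 fell back across it, 13 crossed to it and 5 reversed. Those that crossed were Trp53 and Lmo2 (each under 2 alternatives), Ldha, Hba-a1, Jun, Itga4, Sftpc and Cpa3. With no replicate block 20 named genes lost their call, among them Hist1h2ap, Ccnd3, Cdk4, Ncl, Rpl13, Rps27, mt-Nd4, Myb, Rhag, Il4 and Serpinb1a, and 28 did with cells carrying other cell types' markers left out. Matching the classes on UMIs per cell ended the calls of Ms4a2, Fcer1g, Laptm5 and Ifi27 (adjusted p = 0.443, 0.675, 0.0912 and 0.084), and thinning to 10000 UMIs those of Ube2c, Ms4a2, Gpr65, Sgk1 and B2m (adjusted p = 0.0538, 0.152, 0.0652, 0.145 and 0.164). The reversed were, with other cell types' markers left out, Cdk4 (-0.09), Dtymk (-0.23), Xbp1 (0.37) and Stip1 (-0.04), and with surfactant RNA left out Sftpc (-0.38). The cause was not tested. The alternatives of the planned comparison with endothelial cells were not run. Depth limits the AML 1 non-dividing sum most, with 60 cells.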
